A study of Mus musculus with 26 samples.

Results

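The 7 arrays of total ChREBP-KO inguinal fat did not carry the same amount of lymphocyte RNA, and their differences from each other were examined across all genes. Replicates 2, 3, 5 and 8 were called lymphocyte-rich and replicates 1, 4 and 7 lymphocyte-poor. Lymphocyte genes such as the B cell gene Cd79b and the cytokine gene Ltb read high in the first 4 arrays and low in the other 3. These 7 arrays were taken from the 26 of the series, which held subcutaneous inguinal white adipose tissue of refed male C57BL6/J mice. Before tissue collection all mice went without food for 24 h and were given chow and 20% glucose in the drinking water for the next 18 h. Total ChREBP-KO mice are Mlxipl-null in every tissue and lack ChREBPα and ChREBPβ. These are isoforms of a transcription factor that mediates the response to dietary carbohydrate and regulates lipid synthesis. The other arrays came from WT mice of the total line (n = 7), from ChREBPβ-KO mice (n = 5), which lack ChREBPβ in every tissue, and from WT mice of the β line (n = 7). Age was not given in the sources used here. Genotype, feeding and tissue were the same in the 7 arrays, so the split was made on measured values alone. Differences between rich and poor arrays are therefore given as a description and carry no test. Tests compared or correlated WT arrays, none of which had been used to make the split. The limma fit took its spread from all 26 arrays, so the split KO arrays entered its standard errors.

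The inguinal fat pad of the mouse surrounds the inguinal lymph node, which can be removed or kept when the pad is dissected. A lymph node holds B cells in follicles and T cells in a zone around them, and both enter from the blood through high endothelial venules, whose cells make the mucin-like ligand Glycam1. Stromal cells of the T cell zone make Ccl21a and Ccl19, the ligands of the receptor Ccr7, whereas follicles make Cxcl13, the ligand of Cxcr5. Lymphocytes in turn make lymphotoxin, of which Ltb encodes the membrane-bound subunit, and lymphotoxin keeps these stromal cells in their differentiated state. Adipose tissue without a node also holds some lymphocytes, mainly T cells with an effector phenotype and few B cells.

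In all 26 arrays no spot was saturated and 70.2% to 76.5% of spots were well above background. The rich arrays had median raw intensities of 80.5 to 92 and the poor arrays of 59 to 82. Over all probes, arrays correlated at r = 0.989 to 0.996 within the rich set, at 0.989 to 0.995 within the poor set and at 0.980 to 0.993 between them. Mlxipl, the deleted gene, read between 13.63 and 13.95 on the log2 scale in the 7 KO arrays and between 15.77 and 16.53 in WT arrays of the total line. Its probe thus read lower in every KO array than in any WT array of that line, while the probe still gave signal, and rich and poor arrays overlapped.

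Cd79b, the β chain of the B cell receptor signalling unit, had normalized log2 signals of 12.33, 12.99, 11.46 and 12.17 in rich replicates 2, 3, 5 and 8. It read 9.60, 10.67 and 8.97 in poor replicates 1, 4 and 7. The lowest rich array was thus replicate 5 and the highest poor array was replicate 4, less than 1 log2 unit apart. Ltb read 13.10, 13.47, 12.58 and 13.54 in the rich arrays and 10.04, 10.82 and 9.84 in the poor arrays. Replicates 5 and 4 were again the closest, and the means differed 7.67-fold for Ltb and 5.61-fold for Cd79b. The probes lie at chr11:106172780-106172839 for Cd79b and at chr17:35333097-35333156 for Ltb in mouse genome build mm9, and whether they fall in exons or untranslated regions was not examined here.

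Ccl21a and Glycam1, neither of which is a lymphocyte gene, separated the arrays as well. Ccl21a read 13.44, 13.76, 13.14 and 14.11 in the rich arrays and 7.29, 7.13 and 7.0 in the poor arrays, a difference of 88.7-fold that was the largest of all genes measured. The poor arrays lay close together and inside the range of WT arrays of the β line, 5.95 to 8.06. Glycam1 read 11.19, 11.37, 9.65 and 11.27 in the rich arrays and 8.05, 8.57 and 7.89 in the poor arrays, which is 6.50-fold, and a dimmer second probe of the gene differed by 3.69 (log2). Rich replicate 5 stood below the other rich arrays for this venule gene, and the poor arrays stayed above the highest of the 12 β line arrays, 7.66. In bulk RNA a smaller number of cells cannot be told apart from less RNA per cell, here and in every result that follows.

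**Figure D1:**
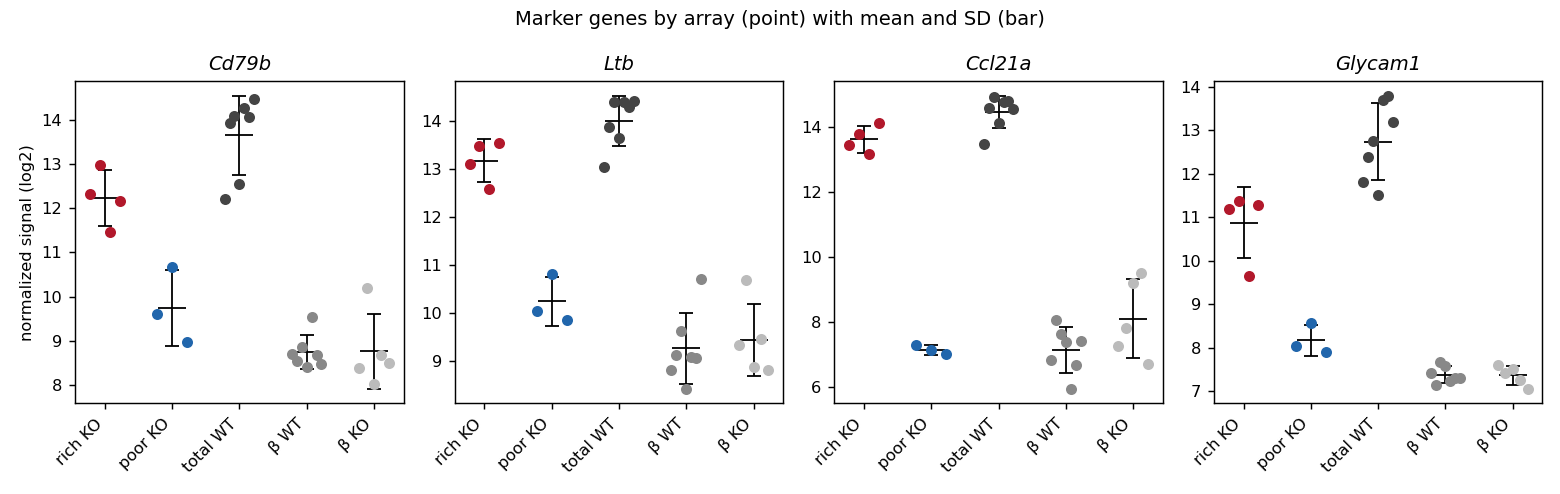
Normalized signal (log2, y axis) of 4 marker genes in the 26 arrays, by group on the x axis: 4 lymphocyte-rich and 3 lymphocyte-poor total KO arrays, 7 WT arrays of the total line, 7 WT and 5 KO arrays of the β line. Points are arrays and bars are mean ± SD. Rich and poor arrays do not overlap for any of these genes, and the gap is widest for Ccl21a, at 13.14 or more against 7.29 or less.

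Promoters of 5 genes that read higher in every rich array are shown. They are RefSeq sequences of 300 bases from build GRCm38.p6, from 250 bases before to 50 bases after the annotated start, written 5′ to 3′ on the strand of the gene, and capitals mark a motif match on either strand. Cd79b had no entry, so Ltb and Cd3d, a subunit of the T cell receptor complex, stand for lymphocyte genes and Ccl21a and Glycam1 for stroma and venules. Gm13304 is a gene model nearly identical to Ccl21a.
Ltb (chr17:35194257-35194556, plus strand): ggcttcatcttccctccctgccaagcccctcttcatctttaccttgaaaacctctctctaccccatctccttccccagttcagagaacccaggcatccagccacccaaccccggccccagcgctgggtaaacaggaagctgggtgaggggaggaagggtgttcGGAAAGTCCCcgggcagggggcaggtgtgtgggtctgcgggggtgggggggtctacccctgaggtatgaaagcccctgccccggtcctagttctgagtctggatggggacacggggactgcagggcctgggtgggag
Cd3d (chr9:44981536-44981835, plus strand): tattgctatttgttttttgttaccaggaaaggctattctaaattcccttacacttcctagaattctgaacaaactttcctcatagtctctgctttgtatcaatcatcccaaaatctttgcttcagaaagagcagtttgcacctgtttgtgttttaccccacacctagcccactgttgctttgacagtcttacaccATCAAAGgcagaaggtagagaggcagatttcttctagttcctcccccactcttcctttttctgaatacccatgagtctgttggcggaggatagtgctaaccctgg
Ccl21a (chr4:42773942-42774241, minus strand): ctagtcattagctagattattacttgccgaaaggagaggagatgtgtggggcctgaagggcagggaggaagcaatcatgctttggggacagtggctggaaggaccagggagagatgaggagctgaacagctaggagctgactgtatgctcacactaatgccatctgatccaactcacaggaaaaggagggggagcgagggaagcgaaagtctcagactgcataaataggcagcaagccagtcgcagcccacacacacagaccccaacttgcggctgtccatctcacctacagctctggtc
Gm13304 (chr4:42114537-42114836, plus strand): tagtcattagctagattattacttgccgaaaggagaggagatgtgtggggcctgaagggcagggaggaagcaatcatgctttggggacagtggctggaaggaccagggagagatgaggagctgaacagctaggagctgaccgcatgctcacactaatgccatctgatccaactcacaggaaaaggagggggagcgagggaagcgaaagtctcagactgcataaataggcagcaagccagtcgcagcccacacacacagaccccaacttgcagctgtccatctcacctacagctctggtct
Glycam1 (chr15:103565032-103565331, minus strand): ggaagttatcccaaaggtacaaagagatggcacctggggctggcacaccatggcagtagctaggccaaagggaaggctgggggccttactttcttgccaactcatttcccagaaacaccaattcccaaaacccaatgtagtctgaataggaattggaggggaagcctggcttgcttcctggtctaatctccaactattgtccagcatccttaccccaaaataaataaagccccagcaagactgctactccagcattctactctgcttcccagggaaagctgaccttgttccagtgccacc

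Ccl21a and Gm13304 were identical at 296 of 299 aligned promoter bases, when shifted by 1 base. Signals of probes for Ccl21a copies may come from more than 1 gene, which promoter sequence cannot show. The probes named Gm1987 and Gm13304, both Ccl21 copies, share a run of 43 of their 60 bases. The Ccl21a probe shares at most 4 bases in a row with either. In mm9 it lies at chr4:42231835-42231894, and the Gm1987 probe lies close by at chr4:42232105-42232164, both on the plus strand. The Ccl21a promoter shown above lies on the minus strand of GRCm38.p6. Which copies each probe reads was not examined. All 3 probes read higher in every rich array, by 6.47 (Ccl21a), 5.36 (Gm1987) and 3.44 (Gm13304) on the log2 scale. Of 4 motifs searched on both strands, Ltb held the NF-kB type (GGG, any 2 bases, then TTTCC) and Cd3d the TCF/LEF type CTTTGAT, and the other 3 promoters held none. The octamer ATGCAAAT and the EBF type CCCNNGGG were found in none of the 5. Over all 32851 promoters, 1.63% held the NF-kB type and 3.73% the TCF/LEF type. The 412 promoters of the genes counted as higher in the rich arrays held them in 1.94% and 3.16%, and held the octamer in 2.43% against 1.74% of all promoters. Over the 17453 promoters of measured genes, from which the 412 come, the shares were 1.67% (NF-kB), 2.80% (TCF/LEF) and 1.43% (octamer), so the TCF/LEF share of the 412 lay below that of all promoters and above that of measured genes. The EBF type was held by 16.5% of the 412, against 13.7% of all promoters and 17.2% of promoters of measured genes. Its share thus lay below that of measured genes, unlike the other motifs. A match is a description of letters and was not tested for binding.

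Across 26154 genes, each represented by its brightest probe, 586 read higher in all 4 rich arrays than in all 3 poor arrays with at least a 2-fold difference of means (2.24% of genes). In the other direction, 4 genes passed the same limits (0.0153%). Without a limit on size, 10.1% of genes were higher and 11.1% lower in every rich array, so the excess lay in the size of the differences and not in the number that did not overlap. Of the genes that did not overlap, 163 were at least 4-fold higher, 42 at least 8-fold and 10 at least 16-fold. The median difference over all genes was -0.05 (log2), and 38.4% of genes had a positive difference. Of the 586, 45 were not well above background on any poor array. The authors had filtered probes on spot quality, and a probe that passed in a single group could be kept. No further filter on low signal was applied here. Replicate 5 was the lowest rich array for 521 of the 586 genes, whereas the highest was replicate 8 for 310 and replicate 3 for 252. Among the poor arrays, replicate 4 was highest for 274 and replicate 7 for 270. With the processed signals scaled to the 75th percentile, 987 genes were higher, and with normexp background correction 384. The split was chosen on lymphocyte genes such as Cd79b and Ltb, so none of these counts is independent of it.

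Among the 15 largest positive differences of named genes were those of Ccl21a, Gm1987, Dapl1, Apol7c, Lef1, Nsg2, Cd8b1, Gm8221, Ccr7, Il7r, Cd8a, Cd3d, Cd5 and Tcf7. Of these genes, 8 belong to the T cell list or are receptors of naive T cells: Lef1 and Tcf7, the paired transcription factors of naive T cells, Cd8a and Cd8b1, the CD8 chains, Cd3d, Cd5, Ccr7 and the interleukin-7 receptor Il7r. Lef1 read 10.37, 11.00, 10.49 and 11.82 in the rich arrays and 6.59, 6.71 and 6.62 in the poor arrays, 19.4-fold. Dapl1 read 9.90 to 11.04 against 5.02 to 5.39, a difference of 36.4-fold. Apol7c read 11.07 to 12.16 against 6.62 to 7.37, 26.7-fold. For all of these genes the 3 poor arrays lay within 1 log2 unit of each other, and the gap to the rich arrays was wider than that.

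**Figure D2:**
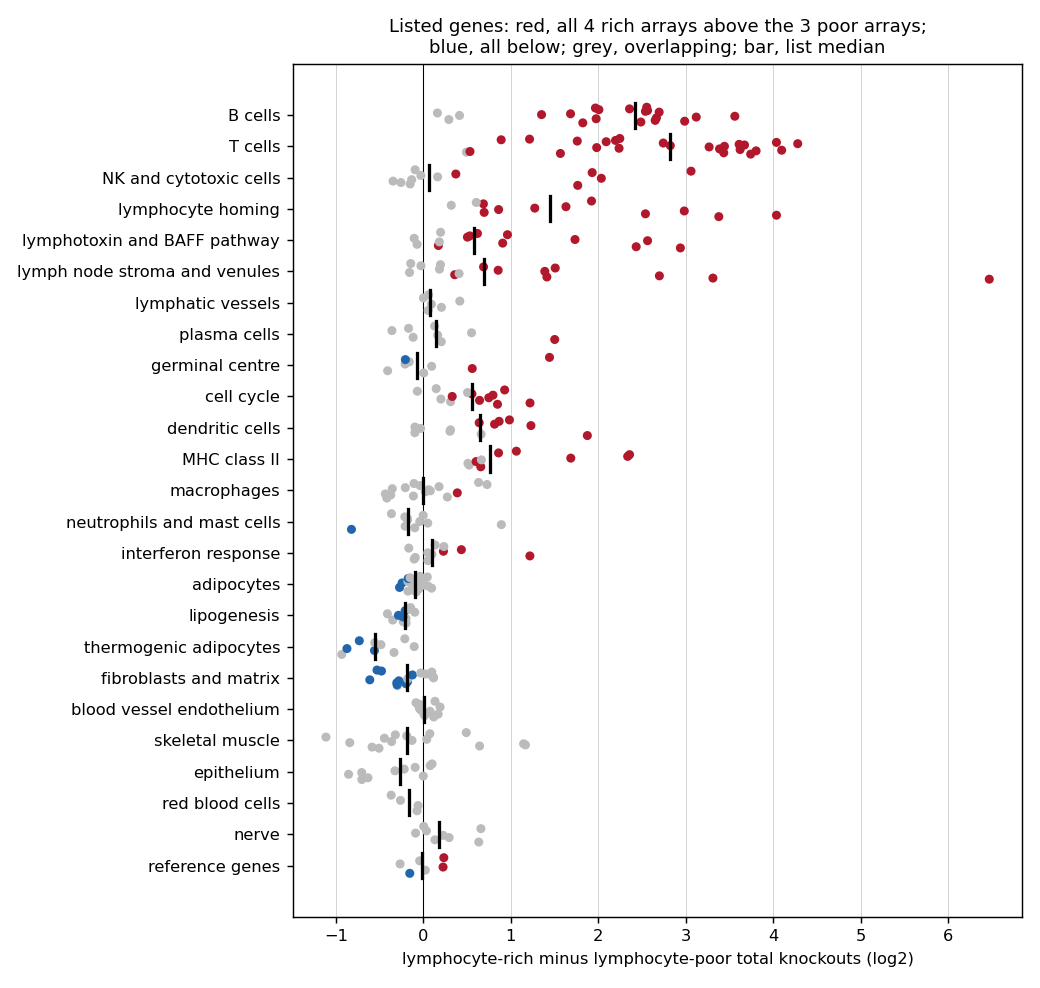
Difference of means between lymphocyte-rich and lymphocyte-poor total KO arrays (log2, x axis) for the genes of 25 lists (y axis). Each point is a gene, red where all 4 rich arrays lie above the 3 poor arrays, blue where all lie below and grey where they overlap, and black bars are list medians. The T cell and B cell lists have medians of 2.82 and 2.42, while the adipocyte, endothelial and reference gene lists lie near 0.

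All 20 genes of the B cell list were measured, and 17 were higher in every rich array (10.1% of all genes), with a median difference of 2.42. The split was made on lymphocyte genes such as Cd79b, so this count and those of the other lymphocyte lists are not independent of it. Fcmr, the Fc receptor for IgM, had the largest difference of the list, 11.8-fold. It read 11.48, 12.02, 10.46 and 11.04 in the rich arrays and 7.65, 9.10 and 6.31 in the poor arrays. Fcer2a, the low-affinity IgE receptor, differed by 3.12 and Spib, a transcription factor of mature B cells, by 2.70 (log2). The poor arrays were spread for these genes, and replicate 4 always read highest among them. The 3 genes that overlapped were Cd22, Pax5 and Blk, with differences of 0.29 for Cd22 and 0.16 for Pax5. For Cd22 and Pax5 other probes read differently. Of 3 dimmer probes of Cd22, a pair differed by 2.30 and 0.52 without overlap and the other by -0.11 with overlap, and a dimmer probe of Pax5 differed by 1.49 without overlap. The single Blk probe was not well above background on any poor array.

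All 25 genes of the T cell list were measured, and 24 were higher in every rich array (10.1% of all genes), with a median of 2.82. Cd8b1 read 11.37, 11.79, 11.30 and 12.29 against 7.44, 7.46 and 7.86, which is 17.1-fold. Cd3d read 11.66, 12.07, 11.67 and 12.67 against 7.91, 8.29 and 8.63. Unlike the B cell genes, these showed no intermediate array: the rich arrays lay close together, replicate 8 was the highest and replicate 4 was not apart from the other poor arrays. Smaller differences were seen for Cd4 (0.53), for Foxp3, the factor of regulatory T cells (0.89), and for Cd247, the ζ chain of the receptor. For Cd247 the arrays overlapped at a difference of 0.49. Dimmer probes of Cd247 differed by 0.81 and 0.88 without overlap and by 0.03 with overlap. Themis and Ctla4 were not well above background on any poor array and were at least 3.29-fold and at least 2.22-fold higher in the rich arrays. This bound sets the rich mean against the mean, over the poor arrays, of the lowest signal well above background on that array or the probe's own signal, whichever was higher.

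Genes of cytotoxic cells did not move as one group. Of 12 genes, 5 were higher in every rich array (10.1% of all genes) and the median was 0.07. Ccl5, a chemokine made by memory and effector T cells, read 13.77, 14.19, 13.80 and 14.85 against 10.89, 10.80 and 11.59, 8.35-fold. Klrd1 (2.04), the cathepsin gene Ctsw (1.93), Nkg7 (1.77) and perforin, Prf1 (0.37), were the others. Granzyme genes overlapped, with differences of -0.15 for Gzma, -0.26 for Gzmb and -0.35 for Gzmk. Gzma read 9.49, 8.86, 9.17 and 9.57 in the rich arrays and 9.18, 9.16 and 9.93 in the poor arrays. The NK cell receptor genes Ncr1 and Klrb1c, at -0.03 and -0.13, overlapped too.

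Of the 12 genes of lymphocyte homing, 10 were higher in every rich array (10.1% of all genes) and the median was 1.45. Ccr7, which guides T cells to the T cell zone, read 11.61, 12.24, 11.65 and 12.84 against 7.68, 8.48 and 7.98, 16.4-fold. Ccr6 (2.98) and Cxcr5 (2.54), both chemokine receptors of B cells, were again highest in poor replicate 4 among the poor arrays. S1pr1 (0.32) and its regulator Klf2 (0.61), which control exit from the node, are also expressed by endothelium, and their arrays overlapped.

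In the lymphotoxin and BAFF pathway, 10 of 14 genes were higher in every rich array (10.1% of all genes) and the median was 0.58. The list includes Ltb, a gene of the split, so this count is not independent of the split. The ligand genes Ltb (2.94) and Lta (2.43) and the BAFF receptor genes Tnfrsf13c (2.56) and Tnfrsf13b (1.73) differed most. The lymphotoxin receptor gene Ltbr, which stromal cells carry, read 12.65 to 12.84 in the rich arrays and 12.72 to 12.86 in the poor arrays, so the arrays overlapped. Tnfsf13b, which encodes BAFF itself, differed by 0.18 with overlap. The non-canonical NF-kB genes Relb (0.96), Nfkb2 (0.62) and Map3k14 (0.53) were higher in every rich array.

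Of 15 genes of lymph node stroma and venules, 9 were higher in every rich array (10.1% of all genes), with a median of 0.69. Ccl19 read 11.04, 11.37, 10.74 and 11.56 against 7.62, 7.80 and 8.18, 9.93-fold. Cxcl13, the follicular chemokine, read 10.38, 10.53, 9.14 and 9.32 against 8.52, 8.65 and 8.12, only 2.66-fold, with replicates 5 and 8 nearer to the poor arrays. Fut7, a fucosyltransferase of high endothelial venules, and Bst1 differed 2.62-fold and 2.84-fold. Genes of the same list that did not follow were Chst4 (-0.16), a sulphotransferase of the same venules, Il7 (-0.03) and Enpp2 (0.18), the venule and adipocyte enzyme that makes lysophosphatidic acid. In none of the 7 KO arrays was Coch well above background, and Madcam1, the addressin of mucosal venules, was dim on every poor array and at least 1.26-fold higher in the rich arrays. Median differences of this list were 1.14 with the processed signals, 1.12 with bright probes alone and 0.34 with normexp. The 6 genes of lymphatic vessels, among them Lyve1 (0.06) and Prox1 (0.21), all overlapped, with a median of 0.08.

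Among genes of later B cell stages, Mzb1, a chaperone of marginal zone B cells and plasma cells, was the one of 8 measured plasma cell genes that was higher in every rich array, by 1.50. Jchain read 8.82 to 9.92 against 8.87 to 9.65, and Prdm1 (0.16) and Sdc1 (-0.17) also overlapped. The plasma cell list had a median of 0.15, and Ighm, Igkc and Igha had no probe under these names. Of all genes, 10.1% were higher and 11.1% lower in every rich array. In the germinal centre list, Cd40 (1.44) and Gcsam (0.56) were higher and Il21 (-0.21) lower in every rich array, while Bcl6, S1pr2, Mybl1 and Rgs13 were among those that overlapped, and the median was -0.08. Of 13 cell cycle genes measured, 8 were higher in every rich array with a median of 0.56, led by Top2a (1.22), Mcm5 (0.93) and Mki67 (0.85).

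Myeloid genes gave a mixed picture. Of 12 dendritic cell genes, 6 were higher in every rich array (10.1% of all genes) and the median was 0.65. They included Flt3, a growth factor receptor of dendritic cells and their precursors (1.88), Ccl22, at least 1.73-fold, and Cd83 (0.98). Zbtb46 (-0.10) and Clec9a (0.31), markers of classical dendritic cells, overlapped, as did Xcr1, which was not well above background on any poor array. In the MHC class II list, 7 of 10 genes were higher in every rich array (median 0.76). H2-Ob (2.36) and H2-Oa (2.34), subunits of the modulator made mainly by B cells, differed most, whereas H2-Ab1 and H2-Eb1, which macrophages also express strongly, overlapped at 0.52 and 0.51.

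The 16 macrophage genes had a median of -0.01, and Lyz2 alone was higher in every rich array (0.39). Over all genes, 10.1% were higher and 11.1% lower in every rich array. Adgre1, which encodes F4/80, read 9.25 to 9.63 against 9.49 to 10.46. Marco, a scavenger receptor, read 11.06, 11.48, 9.72 and 9.73 in the rich arrays and 9.65, 10.43 and 9.51 in the poor arrays, so rich replicates 5 and 8 read like the poor arrays. All 7 KO arrays were above the range of the 12 β line arrays for Marco, 7.05 to 8.24. Of 11 genes of neutrophils and mast cells, the neutrophil gene S100a8 was lower in every rich array (-0.82) and the median was -0.18. In the interferon list of 11 genes, 3 were higher in every rich array, among them Mx1 (1.22) and Irf7 (0.23), whereas Isg15 (0.05), Ifit1 (-0.10) and Rsad2 (-0.17) overlapped, and the median was 0.10.

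Adipocyte genes differed little in size, but 4 of 22 differences were positive, where 38.4% of all genes had a positive difference. The summed linear signal of the list ran from 3.19e+06 to 3.35e+06 in the rich arrays. In the poor arrays it ran from 3.41e+06 to 3.44e+06, without overlap. Of 22, none was higher and 3 were lower in every rich array, near the 11.1% of all genes that were lower, namely Pnpla2 (-0.27), Cd36 (-0.24) and Slc2a4 (-0.17), and the median was -0.09 against -0.05 over all genes. Adipoq, the adiponectin gene, read 17.51, 17.45, 17.60 and 17.49 in the rich arrays and 17.62, 17.67 and 17.49 in the poor arrays. Of these 22 genes, 14 were higher in all 7 KO arrays than in every WT array of the total line, rich and poor alike (9.78% of all genes). Of 11 lipogenesis genes measured, 9 were lower in all 7 KO arrays than in every WT array of that line (4.78% of all genes), among them Acly, Acaca and Elovl6. Between rich and poor arrays, Scd1 (-0.23), Elovl6 (-0.28) and Tkt (-0.21) were lower in every rich array, and the list had a median of -0.21.

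The thermogenic list had the lowest median, -0.56 over 9 genes, and -0.37 without poor replicate 7. Cox7a1 read 12.26, 11.94, 11.57 and 11.97 in the rich arrays and 12.68, 12.76 and 12.99 in the poor arrays. Cpt1b (-0.73) and Cox8b (-0.56) were lower in every rich array as well, and all 3 of these mitochondrial genes are also expressed in muscle. Ucp1 read 7.38, 7.94, 9.34 and 8.10 against 9.57, 10.10 and 7.69 and overlapped. Of 17 genes of fibroblasts and matrix, 9 were lower in every rich array (11.1% of all genes), by 0.61 or less, with a median of -0.18. They included Lum (-0.61), Postn (-0.53) and Lox (-0.48) as well as the collagen genes Col1a1 and Col3a1, at -0.30 each. The endothelial list of 12 genes had a median of 0.01 with no gene apart, and Vwf (0.19) and Kdr (0.17) had the largest differences.

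Other tissues varied between single arrays and not with the split. The 15 skeletal muscle genes all overlapped, and their summed linear signal ran from 22286 to 131681 in the rich arrays and from 13882 to 600610 in the poor arrays. Poor replicate 4 read lowest and poor replicate 7 highest for this list, so that Myh4, a fast myosin gene, read 4.68 in the former and 17.21 in the latter. The 10 epithelial genes measured overlapped too, with summed signals of 5072 to 6359 against 5030 to 10085. Replicate 7 stood out with Krt18 at 11.39, where the other KO arrays read 5.96 to 7.73. Red blood cell genes (median -0.17 over 4) and nerve genes (0.18 over 8) overlapped throughout. The 6 reference genes had a median of -0.01, with Actb and Rplp0 higher (0.23 each) and Hprt lower (-0.15) in every rich array. The part of muscle or epithelium in the fibroblast and thermogenic differences was not tested.

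**Figure D3:**
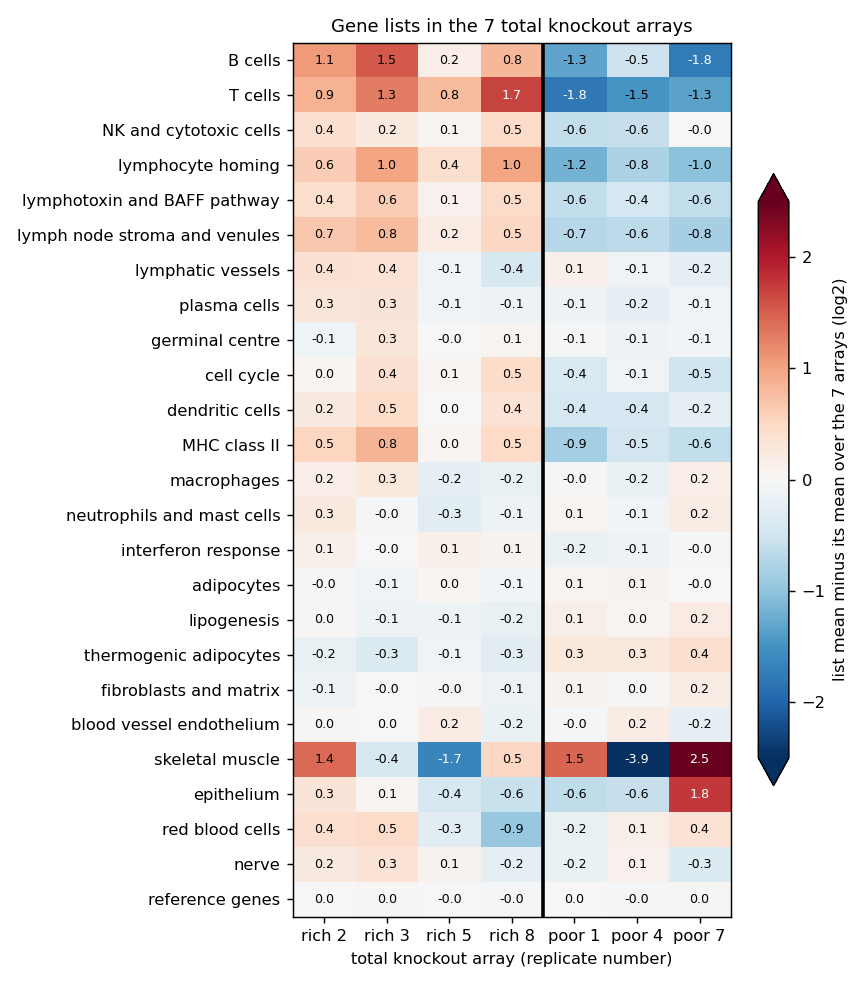
Mean of each gene list (rows) in each total KO array (columns, replicate numbers), as the difference from the mean of that list over the 7 arrays (log2, printed and coloured; colours end at 2.5 in either direction). Lymphocyte and stroma lists follow the split at the black line, while skeletal muscle is lowest in poor replicate 4 and highest in poor replicate 7.

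Only 4 genes were at least 2-fold lower in every rich array, namely Fmr1nb, Dnmt3l, Crtac1 and 3110079O15Rik, of which the last is not in the reference gene table. Fmr1nb read 4.87, 4.38, 4.53 and 4.62 in the rich arrays and 6.59, 5.83 and 5.97 in the poor arrays, and similar levels of 4.92 to 6.70 were seen in WT arrays of the β line. Dnmt3l read 8.17 to 9.11 against 9.30 to 11.00. Crtac1, a cartilage matrix gene, read 8.07 to 8.90 against 9.40 to 10.08. Irx1, 6430571L13Rik, Golga7b, Pcbd1, Cox7a1, Kcnc2 and Hpdl completed the 10 largest negative differences, between -0.99 and -0.85. The count of lower genes went from 4 to 84 without poor replicate 4 and was 10 without poor replicate 1, 9, 7 and 8 without rich replicates 2, 5 and 8, and 2 without poor replicate 7.

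In the single arrays, the mean of the B cell list was 9.72, 10.18, 8.82 and 9.49 in rich replicates 2, 3, 5 and 8 and 7.33, 8.14 and 6.90 in poor replicates 1, 4 and 7. Replicates 5 and 4 were thus the closest arrays of the sets. WT arrays of the total line read 9.62 to 11.64 for this list and β line WT arrays 6.65 to 7.32. The mean of the T cell list was 9.33, 9.73, 9.25 and 10.15 in the rich arrays and 6.67, 6.98 and 7.13 in the poor arrays, with 9.61 to 10.78 in WT of the total line and 6.55 to 7.79 in WT of the β line. The order of arrays differed between the lists: replicate 3 was highest for B cells and replicate 8 for T cells, and replicate 4 was highest of the poor arrays for B cells but not for T cells. All 3 poor arrays lay inside the β line WT range for T cell genes. Poor replicate 7, at 7.13, did so only through β line WT replicate 6 at 7.79, since the next highest array of that group read 7.05. For B cell genes replicates 1 and 4 lay above the β line WT arrays, replicate 1 only just, and replicate 4 also lay above the highest β line KO array, 7.89.

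**Figure D4:**
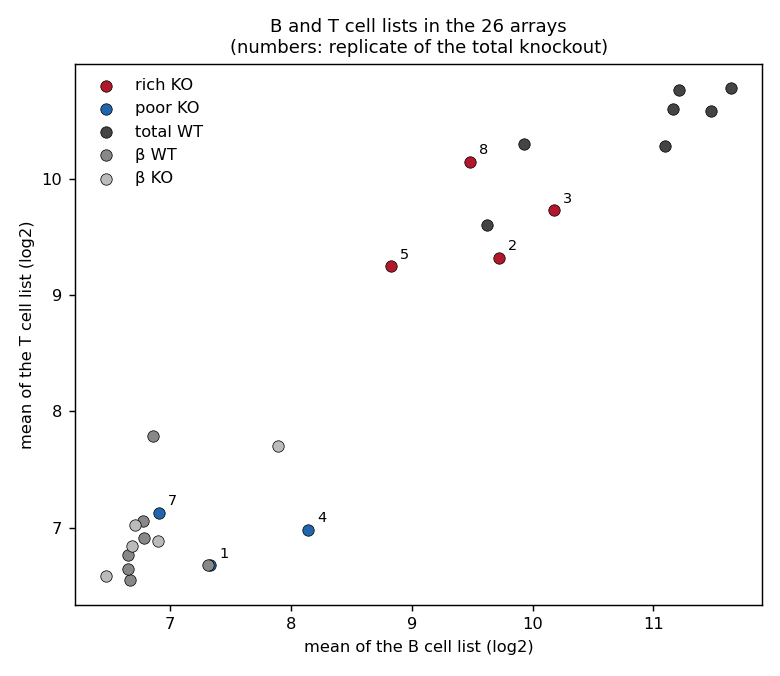
Mean log2 signal of the B cell list (x axis) and of the T cell list (y axis) in the 26 arrays; each point is an array, coloured by group, and numbers give the replicate of the total KO. Rich KO arrays lie below or beside the WT arrays of the total line, and poor KO arrays lie beside the β line, with replicate 4 shifted to the right at 8.14.

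WT arrays of both lines allowed a comparison of samples that the split had not used. The SE and p-values rest on the spread within all groups, which includes the gap between rich and poor KO arrays. They do not measure the spread of the WT arrays alone. In a limma fit to all 26 arrays, of the 26154 genes 19.7% were lower and 26.1% higher in WT of the β line than in WT of the total line (adjusted p of 0.05, Benjamini-Hochberg over 40168 probes). Of the 586 genes higher in the rich KO arrays, 554 were lower in WT of the β line, which is 94.5%, and 2 were higher. With only the 14 WT arrays in the fit, 555 of the 586 were lower and 2 higher. The median difference of the 586 between the lines was -2.12 against 0.03 over all genes. Ccl21a was 159-fold higher in WT of the total line (14.45 ± 0.50 against 7.13 ± 0.70, SD, n = 7 each, log2 difference of the β from the total line -7.31 ± 0.97 SE, limma adjusted p = 1.32e-06). Glycam1 differed by -5.36 ± 0.48 SE (limma adjusted p = 8.73e-09), Cd79b by -4.90 ± 0.50 SE (limma adjusted p = 4.36e-08) and Ltb by -4.75 ± 0.51 SE (limma adjusted p = 9.45e-08). Lef1 differed by -5.39 ± 0.68 SE (limma adjusted p = 7.04e-07). All 7 WT arrays of the total line read above all 7 of the β line for these 5 genes.

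By list, all 20 B cell genes, all 25 T cell genes and all 12 homing genes were lower in WT of the β line, with medians of -4.38, -3.55 and -1.70. In the stroma and venule list 11 of 15 genes were lower and none was higher. Cxcl13 did not pass, at -0.72 ± 0.53 SE (limma adjusted p = 0.285), nor did Chst4, Enpp2 and Il7. Granzyme genes did not pass either, with Gzma at -0.28 ± 0.33 SE (limma adjusted p = 0.514). Of 11 interferon genes 1 was lower and 10 did not pass. Of 22 adipocyte genes 16 were higher in WT of the β line (median 0.55) and none was lower, where 26.1% of all genes were higher. Of 17 fibroblast genes 16 were higher in that line (median 1.09), and of 9 thermogenic genes 8 were lower (median -1.75), where 19.7% of all genes were lower. The lines thus differed in more than lymphocyte genes, and line and lymphocyte content cannot be told apart in the WT arrays.

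**Figure D5:**
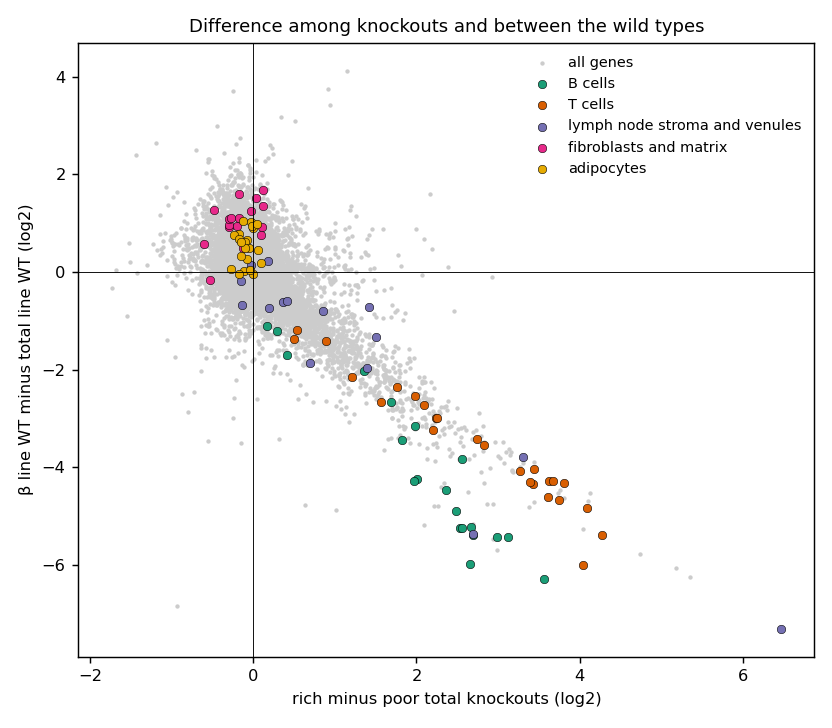
Difference between rich and poor total KO arrays (log2, x axis) against the difference of β line WT from total line WT (log2, y axis); each grey point is 1 of 26154 genes and 5 lists are coloured. B cell, T cell and stroma genes run from the centre to the lower right, with Ccl21a at 6.47 and -7.31, whereas fibroblast and adipocyte genes lie above the centre with little difference among the KO arrays.

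Of the 32 higher genes that were not lower in WT of the β line, 19 carried a transcript identifier in place of a gene name. The 2 that were higher in that line were Ighg3, an immunoglobulin heavy chain gene, at 1.35 (limma adjusted p = 0.00536), and ENSMUST00000103423. Ighg3 read 7.64 to 8.23 in the rich arrays and 6.59 to 7.16 in the poor arrays. Named genes with no call included Cxcl13, Mx1, Apoh, Bhmt, Cyp2a12, Cyp3a13, Igfbp2 and Itih3. Apoh and Bhmt varied widely between single arrays, from 6.10 to 11.38 and from 5.33 to 12.52 in WT of the total line. In the Pearson correlation across genes, which are not independent replicates, both differences had r = -0.68 over 26154 genes. The contrasts share no array, although the limma fit took its spread from all 26.

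The poor KO arrays were also set against the β line. Of the 586 higher genes, the poor arrays lay below all 12 β line arrays for 62, a share near the 8.14% of all genes, and above all of them for 3, where 9% of all genes did. The 3 were Glycam1, Drc1 and Ly6d, a gene of B cell precursors and epithelia that read 9.26 to 10.26 in the poor arrays and 7.41 to 9.11 in WT of the β line. For Ly6d the highest ChREBPβ-KO array read 9.259 and the lowest poor array 9.262, which is nearly a tie. At the other end, 38 of the 586 genes read lower in every rich KO array than in every WT array of the total line, and this share too was near that of all genes, 6.11%.

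Within the WT groups, 8 correlations of Cd79b with other genes were computed. In the 7 WT arrays of the total line Cd79b and Ltb were correlated, with r = 0.93 (exact two-sided permutation p = 0.000198, the smallest that pairings can give, 0.00159 after Benjamini-Hochberg) and rho = 1 (exact permutation p = 0.000397, 0.00317 adjusted). Without the 2 arrays farthest from the median of Cd79b, r was 0.72 over 5 arrays and no longer passed. Ccl21a had r = 0.90 (exact permutation p = 0.0175, adjusted 0.0524) and rho = 0.54 (exact permutation p = 0.236, adjusted 0.471), and Glycam1 had r = 0.84 (exact permutation p = 0.0196, adjusted 0.0524) and rho = 0.71 (exact permutation p = 0.0881, adjusted 0.235). Neither passed, and without the same 2 arrays r was -0.34 and 0.43, so both relations rested on replicates 4 and 5, which had the lowest Cd79b. Adipoq had r = -0.80 (exact permutation p = 0.05, adjusted 0.0978) and rho = -0.82 (exact permutation p = 0.0341, adjusted 0.137), and r was -0.92 without the 2 arrays.

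In the 7 WT arrays of the β line no relation passed. Cd79b had r = -0.09 with Ltb (exact permutation p = 0.798, adjusted 0.912; rho = 0.14, p = 0.783, adjusted 0.906) and -0.74 with Ccl21a (exact permutation p = 0.0611, adjusted 0.0978; rho = -0.39, p = 0.396, adjusted 0.633). It had r = -0.17 with Glycam1 (exact permutation p = 0.725, adjusted 0.912; rho = -0.07, p = 0.906, adjusted 0.906) and 0.02 with Adipoq (exact permutation p = 0.976, adjusted 0.976; rho = -0.11, p = 0.840, adjusted 0.906). Without the 2 farthest arrays these r were -0.44, -0.22, 0.82 and -0.93 over 5 arrays. Cd79b spanned 8.41 to 9.53 in this group, against 12.22 to 14.47 in WT of the total line. The difference between the groups' correlations was not tested.

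Rich and poor arrays were also compared within wash batches, the label that groups arrays washed together. In batch 1, rich replicate 3 exceeded poor replicate 1 by 3.39 for Cd79b, 3.43 for Ltb, 6.47 for Ccl21a and 3.33 for Glycam1. In batch 3, replicate 8 exceeded replicate 4 by 1.50, 2.72, 6.98 and 2.70 for the same genes. In batch 4, replicate 5 exceeded replicate 7 by 2.48, 2.74, 6.14 and 1.76. Batch 2 held only rich replicate 2, and the 7 arrays lay on 7 different slides. Every pair thus differed in the same direction. For lymphocyte genes such as Cd79b and Ltb the choice of members fixes this. For Ccl21a and Glycam1 it follows from the lack of overlap between rich and poor arrays. The direction of these pairs is therefore not a separate check.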

How the data were processed

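Cy3-labelled cRNA of each sample was hybridised to a 1-colour Agilent mouse whole-genome array. The authors scanned the arrays and extracted spots with Agilent Feature Extraction 10.10.1.1; the deposited scanner files hold raw and processed intensity values per spot with quality calls. The deposited series table holds log2 values that the authors filtered on spot quality, quantile normalized over the arrays and resolved to the median of replicated probes. It has 40168 probes of the 56605 that are not controls, with 97 missing values in all, and each of its 26 columns matched its own scanner file best (r of 0.9993 or more). These log2 values were used as deposited, without further scaling or filter.

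A gene was represented by the probe with the highest mean over the 26 arrays (26154 gene names from the scanner files, of which 17749 were in the RefSeq gene table), and levels are not compared between genes. Probe positions are those of the array files for build mm9. Groups were taken from the labels, and rich and poor arrays from measured lymphocyte genes such as Cd79b and Ltb. The members, the 25 gene lists (313 genes, of which 303 were measured) and the tests were chosen with earlier results of these data known. The study counts each replicate as 1 mouse, and the labels do not tie mice to litters, so p-values measure the spread between these samples. A gene was counted as higher or lower when rich and poor arrays did not overlap and their means differed at least 2-fold. WT lines were compared with limma 3.58.1 in R 4.3.3 (lmFit with 1 coefficient per group, eBayes, Benjamini-Hochberg over all probes, adjusted p of 0.05), which was tested on simulated data. Correlations used exact permutation over pairings (Python 3.11.15, numpy 2.4.6). Alternatives were values recomputed from the scanner intensities after the methods, processed signals scaled to the 75th percentile, normexp with an offset of 50, bright probes alone, the mean of all probes of a gene, each array left out, wash batch, slide, array weights and the replicate number as a block. Genes were named by a rule: the 4 markers, the up to 4 largest differences of each list and genes whose role is explained, the 15 largest positive and 10 largest negative differences, Mlxipl, and genes that went against their list. Some genes that the rule named are not reported here. Names given as exceptions were chosen after their values were seen. The number of arrays limits the precision.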

Additional observations from a re-analysis of the deposited data

Results flagged for a closer look

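In 165 groups of 4 to 7 arrays (8 genes and 25 list means, in each labelled group and in the 4 rich arrays), 19 had 1 array whose gap to the nearest other, as a share of the group's range, was above Dixon's 95% critical value, and chance flags about 5% of such groups. Among the rich KO arrays, Glycam1 was flagged because replicate 5 read 9.65, far below the other 3. In the total KO group the mean of the epithelial list was flagged at 8.85 in replicate 7. In WT of the total line, replicate 4 was lowest for Lef1 (10.6) and for the T cell list mean (9.61), and replicate 6 was highest for the epithelial list mean (8.02).

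In WT of the β line, replicate 6 was highest for Lef1 (7.50), Cd8b1 (9.43) and for the list means of T cells (7.79), NK and cytotoxic cells (9.08), dendritic cells (9.48) and MHC class II (11.5). Replicate 8 of that group was highest for Cd79b (9.53), Fcmr (7.41) and the B cell list mean (7.32), and replicate 3 was highest for the interferon list mean (13.4). In ChREBPβ-KO arrays, replicate 1 was highest for Lef1 (8.55) and Fcmr (9.06), and replicate 4 was highest for the interferon list mean (13.2) and lowest for the adipocyte list mean (15.6). B cell and T cell genes were thus flagged in different arrays of the β line WT group, replicates 8 and 6.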

How the results depend on the processing

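The count of genes higher in rich arrays was 987 with processed signals and 384 with normexp, and 542 to 687 with 1 array left out. The first of these shared 584 genes with the 586 and the second 384. The count of lower genes was 19, 2 and 2 with processed signals, normexp and bright probes, 13 within wash batches and 2 to 84 with 1 array left out, the highest without poor replicate 4. With processed signals the list medians were 3.72 (T cells), 0.38 (NK and cytotoxic cells), 1.14 (stroma and venules), 0.79 (cell cycle), -0.19 (adipocytes), -0.31 (fibroblasts and matrix) and -0.064 (reference genes). Bright probes gave 3.41 (T cells) and 1.12 (stroma and venules), normexp 0.34 (stroma and venules) and the mean of all probes 1.15 (homing). With 1 array left out, the interferon median ran from 0.072 to 0.17, the thermogenic median from -0.63 to -0.37 and the reference median from -0.050 to 0.015. The other list medians moved by less than the spread between arrays. The cause of these shifts was not tested.

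Between the WT lines, 10265 probes were higher and 7950 lower in the β line; the mean of all probes gave 6802 higher genes because it tests 26154 genes. The calls were 9031 and 9824 with processed signals. The replicate numbers did not pair the samples (r of deviations of the 6 shared numbers -0.29 to 0.26); with the replicate block 9741 probes were higher and 7383 lower, and 554 of the 586 genes were lower as before. That count ran from 450 of 476 with bright probes to 557 of 586. Correlations of Cd79b in WT of the total line passed after adjustment with recomputed values for Ccl21a (0.90), Glycam1 (0.84) and Adipoq (-0.84) and with processed signals for Adipoq (-0.92), and Ltb no longer passed without the 2 farthest arrays (0.72).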

Other observations

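Genes chosen after their values were seen showed further differences between single arrays. Genes of liver-made plasma proteins varied widely in this fat: Ahsg read 7.37, 9.24, 9.84 and 4.88 in rich replicates 2, 3, 5 and 8 and 4.86, 5.97 and 7.34 in poor replicates 1, 4 and 7. Fgb read 5.72, 7.49, 8.16 and 4.50 against 4.52, 4.79 and 6.80, and Ttr read 5.30, 7.08, 7.48 and 4.31 against 4.38, 4.63 and 5.57. All 3 genes reached higher levels in the other groups, up to 14.2 for Ahsg, 13.3 for Fgb and 12.6 for Ttr in WT of the total line and up to 13.6, 12.4 and 12.1 in ChREBPβ-KO arrays. Replicates 3 and 5 were the 2 highest KO arrays for all 3 genes. In rich replicate 8, Rbakdn read 9.62, where the other 25 arrays of the series read 5.02 to 5.97, and 1700026L06Rik read 9.30, where they read 5.75 to 7.95.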
